A study of Mus musculus with 14 samples.

Results

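The IL-10 family cytokines and their receptors were examined in sorted mouse lung group 2 innate lymphoid cells (ILC2s). The 6 genes described here are the cytokines Il10 and Il24 and the receptor chains Il10ra, Il10rb, Il20ra and Il20rb. They were taken by gene symbol from the deposited tables, and all 6 were found among the 53278 genes in the raw counts and in the TPM (a read share corrected for transcript length) of both experiments. In the first experiment, lung ILC2s of 8 separate female B6 mice were cultured in complete RPMI, 4 of them without stimulation and 4 with 20 ng/mL of IL-33 over 24 h. In the second experiment, lung ILC2s of 3 female ControlIL7RaCre mice (Control) and 3 age-matched female Blimp-1IL7RaCre mice (Blimp-1-deficient) received 20 ng/mL of IL-33 plus 20 ng/mL of IL-25 in culture over 72 h. The study's RNA sequencing methods add IL-2 to that culture and do not name it for the first experiment. The general culture section of the study adds IL-2 to sorted ILC2s. Whether the cultures of the first experiment held IL-2 is therefore uncertain. The Blimp-1-deficient mice combine a floxed Blimp-1 gene with a Cre driven by the Il7r gene, and the Control label names the same Cre without giving the other alleles. This Cre deletes in all ILCs and also in T, B and NK cells. For the ages of the mice, the study's methods give only a lower limit of some weeks. The series design describes the unstimulated cells both as cultured for 24 h without IL-33 and as ex vivo cells, so the time that they spent in culture is uncertain.

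Cytokines of the IL-10 family bind pairs of class II cytokine receptor chains. IL-10, which restrains inflammatory responses, binds a receptor of the ligand-specific chain Il10ra and the shared chain Il10rb, and signals through JAK1, TYK2 and STAT3. IL-24 belongs to the IL-20 subfamily and binds receptors built on Il20rb, paired with Il20ra or with Il22ra1, which are best known on epithelial cells. ILC2s are lymphocytes without antigen receptors that answer alarm cytokines of the tissue, IL-33 and IL-25 among them, by secreting type 2 cytokines, and activated lung ILC2s can also make IL-10. Blimp-1, encoded by Prdm1, is a transcriptional repressor that takes part in Il10 expression in T cells.

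The stimulation libraries held 10470125 to 32849428 counts and the Blimp-1 libraries 13570188 to 76448945. The lowest library of each stood apart from its group. IL-33 stimulated replicate 3 had the fewest counts, and the SD across genes of its log2 ratio to the other stimulated libraries was 1.59 to 1.63, against 0.249 to 0.342 between the others. In Control replicate 2, 7 loci held 76.8% of the counts and 93.9% of the TPM, which left 3150795 counts for all other genes. Both comparisons are therefore given with and without these libraries. Values per library are counts normalized by the TMM method and scaled to 1e+06 per library (CPM), which compare one gene between libraries. TPM, which account for gene length, are used between genes. Prdm1 had 75.2, 92.8 and 74.0 CPM in the Control libraries and 14.6, 11.5 and 11.4 CPM in the Blimp-1-deficient libraries, which is -2.68 on the log2 scale (adjusted p = 0.00441, standard error 0.15). All 16 ILC2 markers examined had a mean of at least 1 CPM in each of the 4 groups.

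Il24 and Il10 lie on the same stretch of chromosome 1 in GRCm38. Il24 (ENSMUSG00000026420.16) is on the minus strand from 130882074 to 130887454, and Il10 (ENSMUSG00000016529.5) is on the plus strand from 131019845 to 131024974. The family genes Il20 and Il19 lie between them, and the 4 genes span 142.9 kb. Il10ra (ENSMUSG00000032089.16) lies on chromosome 9, minus strand, from 45253837 to 45269149. Il10rb (ENSMUSG00000022969.13) lies on chromosome 16, plus strand, from 91406164 to 91425834. Il20ra (ENSMUSG00000020007.4) lies on chromosome 10, plus strand, from 19712570 to 19760053, and Il20rb (ENSMUSG00000044244.18) on chromosome 9, minus strand, from 100457719 to 100486788. Only Il10rb shared exon sequence with another annotated gene, 569 bases (14.9% of its exon bases) with Gm21970 on the same strand. Gm21970 was at 0 counts in all 14 libraries, and how reads in the shared bases were assigned is not given in the sources used here. No stretch of 75 bases, the read length, in the annotated transcripts of the other 5 genes occurred in a transcript of another gene.

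Both cytokines were higher after IL-33. Il24 rose from nearly no reads to between 27.6 and 46.6 CPM, and Il10 rose from nearly no reads to between 0.788 and 2.66 CPM. Of the receptor chains, Il10ra rose and Il10rb fell, and for Il20rb and Il20ra no difference was detected. Among the 5 members with enough counts to be tested, 3 were thus higher and 1 lower in IL-33 stimulated than in unstimulated ILC2s (edgeR quasi-likelihood test, adjusted p below 0.05, n = 4 per group). Across all 15466 genes tested, 32.3% passed the threshold, 16.2% higher and 16.1% lower, and 37.9% had groups that did not overlap. Il10 and Il24 entered the test only through the stimulated libraries, in which they are high, so the count of members is given as a description. Without IL-33 stimulated replicate 3, again 3 were higher and 1 lower, when 57.2% of 15733 genes passed, 27.5% higher and 29.7% lower, and 58.7% had groups that did not overlap.

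**Figure D1:**
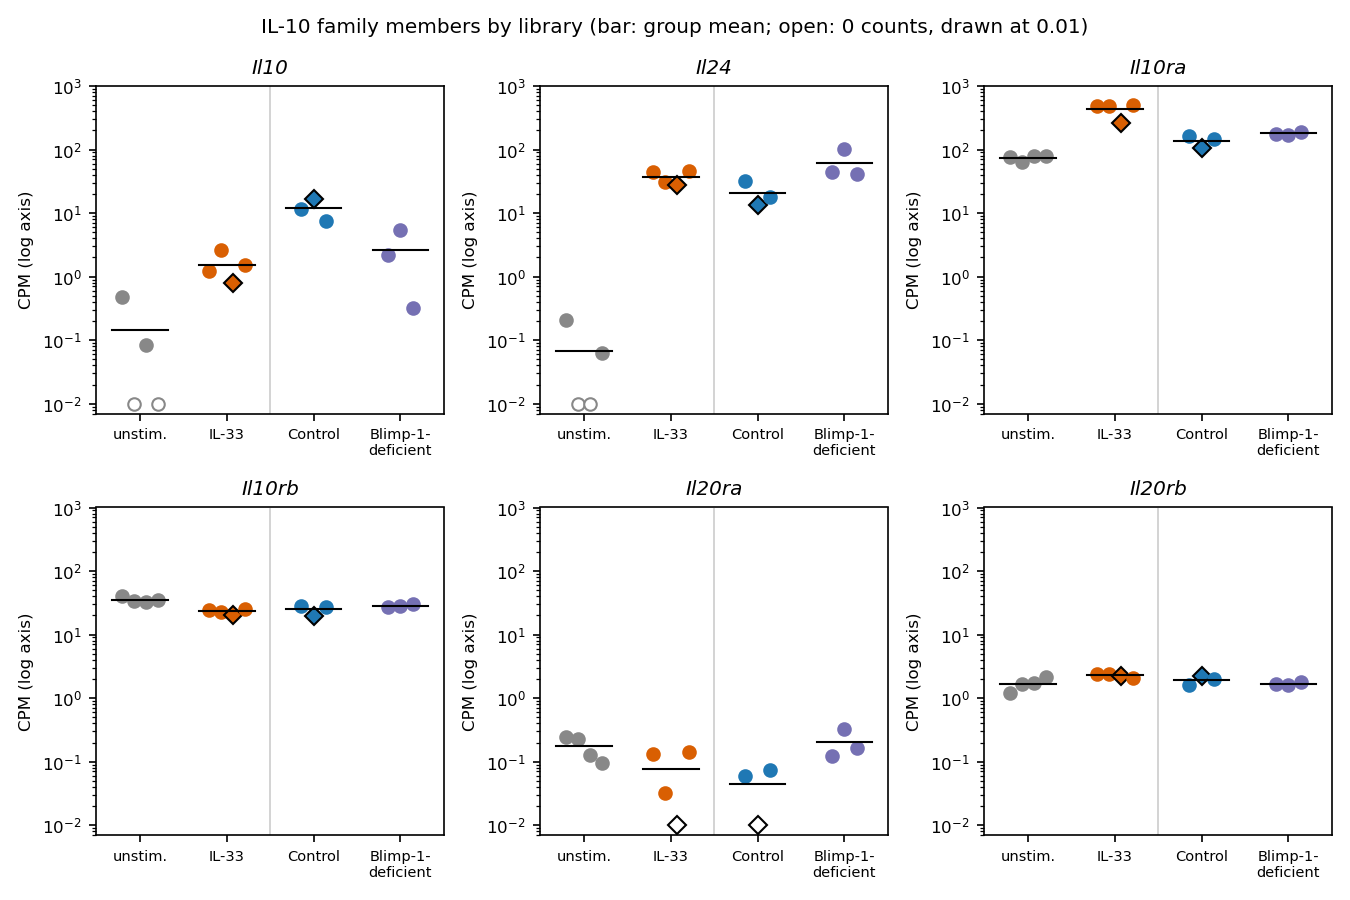
CPM of each of the 6 genes (log axis) in every library of the 4 groups, with the group mean as a bar, open symbols for libraries with 0 counts and black-edged diamonds for IL-33 stimulated replicate 3 and Control replicate 2. The grey line separates the experiments, and Il24 lies between 27.6 and 46.6 CPM in the IL-33 stimulated libraries, all above the unstimulated ones.

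Il24, a cytokine of the IL-20 subfamily, had 6, 0, 0 and 2 raw counts in the unstimulated libraries 1 to 4. In the IL-33 stimulated libraries it had 1353, 950, 280 and 1318 raw counts. In CPM these were 0.208, 0, 0 and 0.0630 without IL-33 and 44.5, 30.8, 27.6 and 46.6 with it. Every stimulated library lay far above every unstimulated library, and stimulated replicate 3, with the lowest count, was also the library of lowest depth. On the log2 scale the difference was 9.02 (standard error 0.81, 95% interval 7.14 to 10.89, adjusted p = 0.000142), the rise of rank 5 among the 15466 genes tested, although a fitted fold change against libraries at 0 counts depends on the prior count. It was 9.15 (standard error 0.39, adjusted p = 7e-08) without IL-33 stimulated replicate 3.

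Il10 had 14, 0, 2 and 0 raw counts in the unstimulated libraries 1 to 4 and 37, 82, 8 and 43 in the IL-33 stimulated libraries 1 to 4. The corresponding levels were 0.486, 0, 0.0850 and 0 CPM, and 1.22, 2.66, 0.788 and 1.52 CPM. The groups did not overlap, but the gap between the highest unstimulated library, replicate 1, and the lowest stimulated library, replicate 3, was narrow. The log2 fold change was 3.44 (standard error 1.12, 95% interval 0.86 to 6.03, adjusted p = 0.0481). Leaving out IL-33 stimulated replicate 3 gave 3.68 (standard error 0.83, adjusted p = 0.00378). This call was the least secure of the 4, since it was lost when any of 6 other libraries was left out (unstimulated replicates 2, 3 and 4 and IL-33 stimulated replicates 1, 2 and 4), with adjusted p of 0.0752 to 0.131. The call was also lost with the replicate number as a block. Without unstimulated replicate 1, which held 14 of the unstimulated counts, the log2 fold change was 5.83 (adjusted p = 0.00668).

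In every stimulated library Il24 exceeded Il10 when compared per length. Il24 was at 92.9, 63.0, 52.1 and 89.8 TPM and Il10 at 2.69, 5.75, 1.57 and 3.10 TPM in stimulated replicates 1 to 4. The ratio of their TPM ran from 10.95 to 34.6, lowest in replicate 2, the library with the most Il10. In unstimulated ILC2s both were too low for a ratio.

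Of the other ligands of the family, Il22 was the only one with enough counts to be tested. Il22, which acts mainly on epithelial cells, had 3, 14, 4 and 52 counts without IL-33 and 203, 305, 20 and 294 counts with it. It rose by 3.63 on the log2 scale (adjusted p = 0.0200, standard error 0.94), and by 3.90 without IL-33 stimulated replicate 3 (adjusted p = 0.000321). All 3 of the 8 listed ligands that could be tested were thus higher, with the limit given above for genes that enter the test through their high group. Il19, the neighbour of Il10, had 12, 1, 0 and 12 counts in the stimulated libraries and 0, 0, 0 and 1 in the unstimulated libraries. Il20, Iltifb, Ifnl2 and Ifnl3 were at 0 counts in all 8 libraries. A count of 0 allows up to 3 counts, which is 0.0859 to 0.127 CPM in the unstimulated libraries and 0.0972 to 0.296 CPM in the stimulated libraries, for counting error only.

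Il10ra, the ligand-specific chain of the IL-10 receptor, had 76.8, 63.5, 78.5 and 78.02 CPM in the unstimulated libraries 1 to 4. In the IL-33 stimulated libraries it had 482, 479, 263 and 498 CPM. The lowest stimulated library, replicate 3, was still above the highest unstimulated one, and the other stimulated libraries lay close together. The mean rose 5.81-fold, or 2.54 on the log2 scale (95% interval 2.06 to 3.02, standard error 0.21, adjusted p = 9.31e-05). Leaving out IL-33 stimulated replicate 3 gave 2.71 (standard error 0.08, adjusted p = 1.5e-08).

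Il10rb, the shared chain used by the receptors for IL-10, IL-22 and type III interferons, moved the other way. It had 41.0, 33.2, 32.8 and 34.8 CPM in the unstimulated libraries 1 to 4 and 24.2, 22.7, 20.7 and 25.1 CPM in the IL-33 stimulated libraries. All stimulated libraries lay below all unstimulated libraries. It fell by 0.61 on the log2 scale (adjusted p = 0.00358, standard error 0.11), and by 0.56 without IL-33 stimulated replicate 3 (adjusted p = 0.000444). The change was small beside those of Il10ra and the cytokines.

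The balance of the IL-10 receptor chains therefore differed between the groups. In unstimulated ILC2s, Il10ra was at 73.4 ± 7.32 TPM and Il10rb at 32.1 ± 2.38 TPM (SD, n = 4), and the ratio of Il10ra to Il10rb ran from 2.04 to 2.61 over the libraries. In IL-33 stimulated ILC2s they were at 341 ± 96.4 and 16.8 ± 1.82 TPM (SD, n = 4), and the ratio ran from 13.9 to 22.95, lowest in replicate 3. The ratios of the groups did not overlap.

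**Figure D2:**
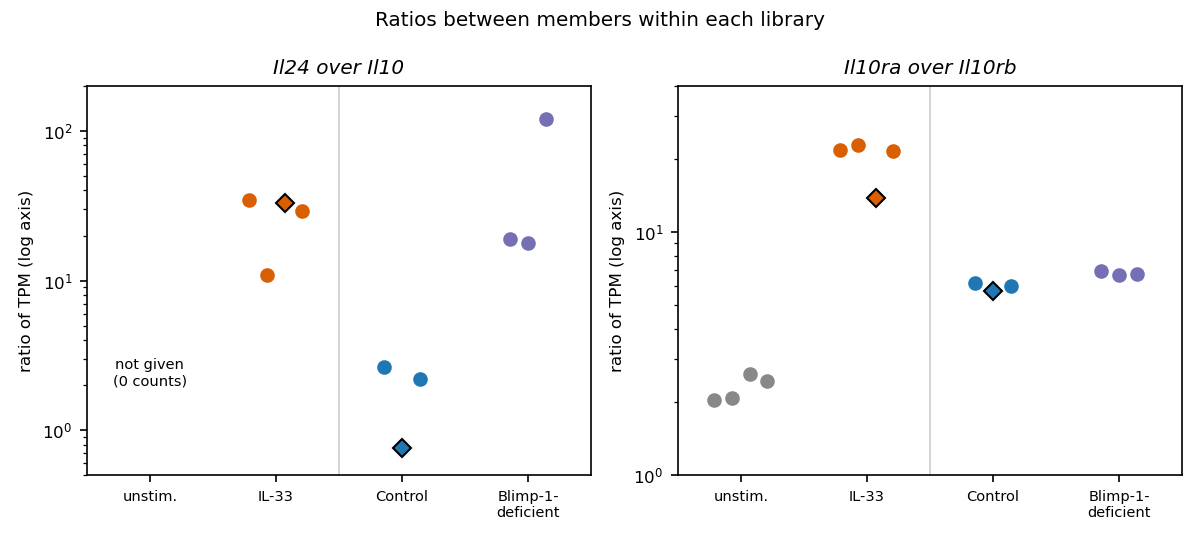
Ratio of TPM within each library (log axis) for Il24 over Il10, left, and Il10ra over Il10rb, right, in the 4 groups, with black-edged diamonds for IL-33 stimulated replicate 3 and Control replicate 2. The Il10ra over Il10rb ratio is 2.04 to 2.61 in unstimulated and 13.9 to 22.95 in IL-33 stimulated libraries, and Il24 over Il10 is 0.753 to 2.63 in Control and 17.7 to 120.9 in Blimp-1-deficient libraries.

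The chains of the IL-20 type receptors, which IL-24 uses, were low in ILC2s. Il20rb, the shared chain, had 1.22, 1.69, 1.74 and 2.14 CPM in the unstimulated libraries and 2.37, 2.40, 2.27 and 2.09 CPM in the IL-33 stimulated libraries. The groups overlapped at unstimulated replicate 4, and the log2 fold change of 0.42 did not pass the test (95% interval -0.13 to 0.98, adjusted p = 0.202). Il20ra, its partner, had only 7, 8, 3 and 3 raw counts in the unstimulated libraries and 4, 1, 0 and 4 in the stimulated libraries, too few for the test across genes. An exact permutation test of its log2(CPM + 0.5), two-sided over 70 splits, gave p = 0.1714. Il22ra1, the alternative partner of Il20rb, was at 0 counts in all 14 libraries of both experiments, as was the soluble IL-22 receptor Il22ra2. A difference in Il20ra was thus not detectable at this depth.

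Promoter windows of 300 bases, from 250 before to 50 after the start site, were available from RefSeq (GRCm38.p6) for these 2 members, Il20ra and Il20rb, of the 6, and are shown because both chains stayed low in every group. They were searched on both strands for GTGAAAG (core of the Blimp-1 site), TGANTCA (AP-1), the NF-kB motif and TTCNNNGAA (STAT), and matches are in capitals. The windows are chr10:19712337-19712636 on the plus strand for Il20ra and chr9:100486424-100486723 on the minus strand for Il20rb. The RefSeq start sites lie inside the GENCODE gene spans given above, and the Il20rb window lies wholly within its span.
Il20ra: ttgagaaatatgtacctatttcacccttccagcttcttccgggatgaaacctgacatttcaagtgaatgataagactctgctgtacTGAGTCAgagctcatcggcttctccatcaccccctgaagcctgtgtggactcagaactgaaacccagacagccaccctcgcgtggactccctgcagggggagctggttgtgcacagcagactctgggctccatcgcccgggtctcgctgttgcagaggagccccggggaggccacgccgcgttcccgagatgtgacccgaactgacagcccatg
Il20rb: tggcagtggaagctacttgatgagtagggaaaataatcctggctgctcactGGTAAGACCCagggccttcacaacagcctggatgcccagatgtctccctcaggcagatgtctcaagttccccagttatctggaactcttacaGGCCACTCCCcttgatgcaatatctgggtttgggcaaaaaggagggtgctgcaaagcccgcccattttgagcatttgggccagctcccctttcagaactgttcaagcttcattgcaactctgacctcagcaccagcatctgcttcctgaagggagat
In Il20ra the only match was TGAGTCA, 164 bases before the start site, of the AP-1 motif that 7.81% of 32851 promoter windows hold. In Il20rb the matches were 2 of the loose NF-kB pattern, which 50.8% of the windows hold. Neither window held the Blimp-1 core, found in 4.24% of windows, or the STAT motif, found in 8.30%. A match is a description of the sequence and not evidence that a factor binds there. Il10, Il24, Il10ra and Il10rb were not searched here.

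**Figure D3:**
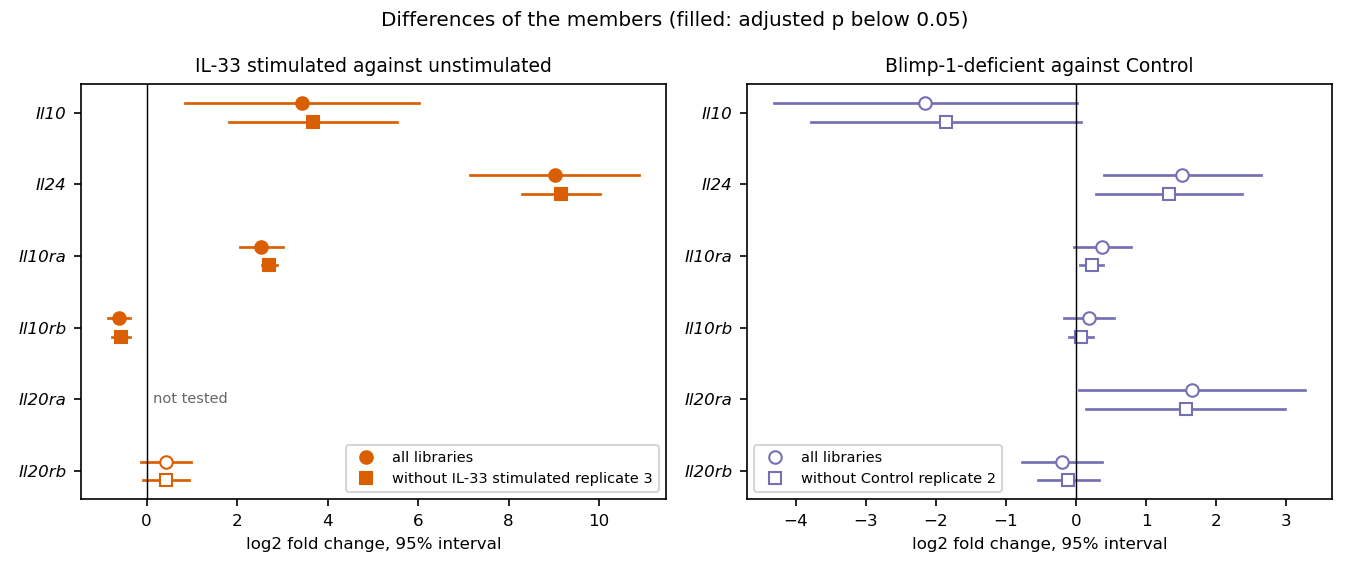
Log2 fold change with its 95% interval for the 6 genes, IL-33 stimulated against unstimulated (left, where Il20ra was not tested) and Blimp-1-deficient against Control (right). Circles use all libraries and squares leave out IL-33 stimulated replicate 3 or Control replicate 2, and filled symbols have an adjusted p below 0.05, which holds for Il10, Il24, Il10ra and Il10rb on the left and for no gene on the right.

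Il10ra was the only class II receptor chain to pass as higher. Of the 11 chains listed, 7 could be tested, with 1 higher and 2 lower, when 16.2% of all genes were higher and 16.1% lower. Ifngr1, the ligand-binding chain of the interferon-gamma receptor, fell by 1.66 on the log2 scale (adjusted p = 0.000159, standard error 0.15) and stood beside Il10rb as the other chain that was lower. Ifngr2, Ifnar1 and Ifnar2 did not pass, with log2 fold changes of -0.23, -0.16 and -0.17. The median log2 fold change over the 7 chains was -0.17, against 0.06 over all genes tested. Of the 7 kinases and STATs downstream of these receptors, only Jak2, which serves the interferon-gamma receptor, passed, when 32.3% of all genes did. Jak2 was 1.54 higher on the log2 scale (adjusted p = 3.06e-05). Without IL-33 stimulated replicate 3, 4 of the 7 passed, about the rate of all genes (57.2%). The others were Stat5a (0.49), Tyk2 (0.37) and Stat5b (0.29). In limma on log2(TPM + 1) these 3 did not pass, at 0.18, 0.07 and -0.02 (adjusted p = 0.15, 0.509 and 0.78). Stat3 itself did not pass in either fit.

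Genes known to be induced by IL-10 through STAT3, or to feed back on it, passed at about the rate of all genes (32.3%). Of 10 listed and tested, 2 were higher, Ddit4 (log2 fold change 0.89, adjusted p = 0.0219) and the kinase Pim1 (0.45, adjusted p = 0.0345), and 1 was lower, the repressor Etv3 (-1.57, adjusted p = 2.43e-05). The Pim1 call was lost with library size alone (adjusted p = 0.104), and in limma on log2(TPM + 1) neither Pim1 (0.10, adjusted p = 0.655) nor Ddit4 (0.50, adjusted p = 0.176) passed. The median of the list was 0.28. With IL-33 stimulated replicate 3 left out, 5 were higher and 2 lower, when 57.2% of all genes passed.

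Of 12 transcription regulators linked to Il10 in T cells, 4 were higher after IL-33 and 2 lower, when 32.3% of all genes passed. The higher ones were Crem (log2 fold change 2.50, adjusted p = 4.47e-06), Irf4 (2.42, adjusted p = 0.000401), Batf (1.27, adjusted p = 0.000248) and Bhlhe40 (0.96, adjusted p = 0.000248). Gata3, which defines ILC2s, was lower (-0.69, adjusted p = 0.00273). The median of the list was -0.01, so the regulators did not share a direction. With IL-33 stimulated replicate 3 left out, 5 were higher and 3 lower, against 57.2% of all genes.

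The genes around Il24 and Il10 on chromosome 1 went in both directions. Of 11 listed neighbours that are not cytokines, 7 could be tested, with 2 higher and 1 lower, when 32.3% of all genes passed. Dyrk3, a kinase gene 118.5 kb beyond the Il10 start site, was higher (log2 fold change 1.57, adjusted p = 0.000714), as was Mapkapk2 (0.61, adjusted p = 0.0133; 0.243 in limma on log2(TPM + 1)), the kinase gene next to Il10. Rassf5 was lower (-0.72, adjusted p = 0.00274). Without IL-33 stimulated replicate 3, 4 of 8 were higher and 2 lower (57.2% of all genes passed), and Fcmr, the gene beside Il24, could then be tested and was higher (log2 fold change 4.73, adjusted p = 0.000167), but it entered the test only through the stimulated libraries, in which it is high. The median over the 7 neighbours was 0.03.

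**Figure D4:**
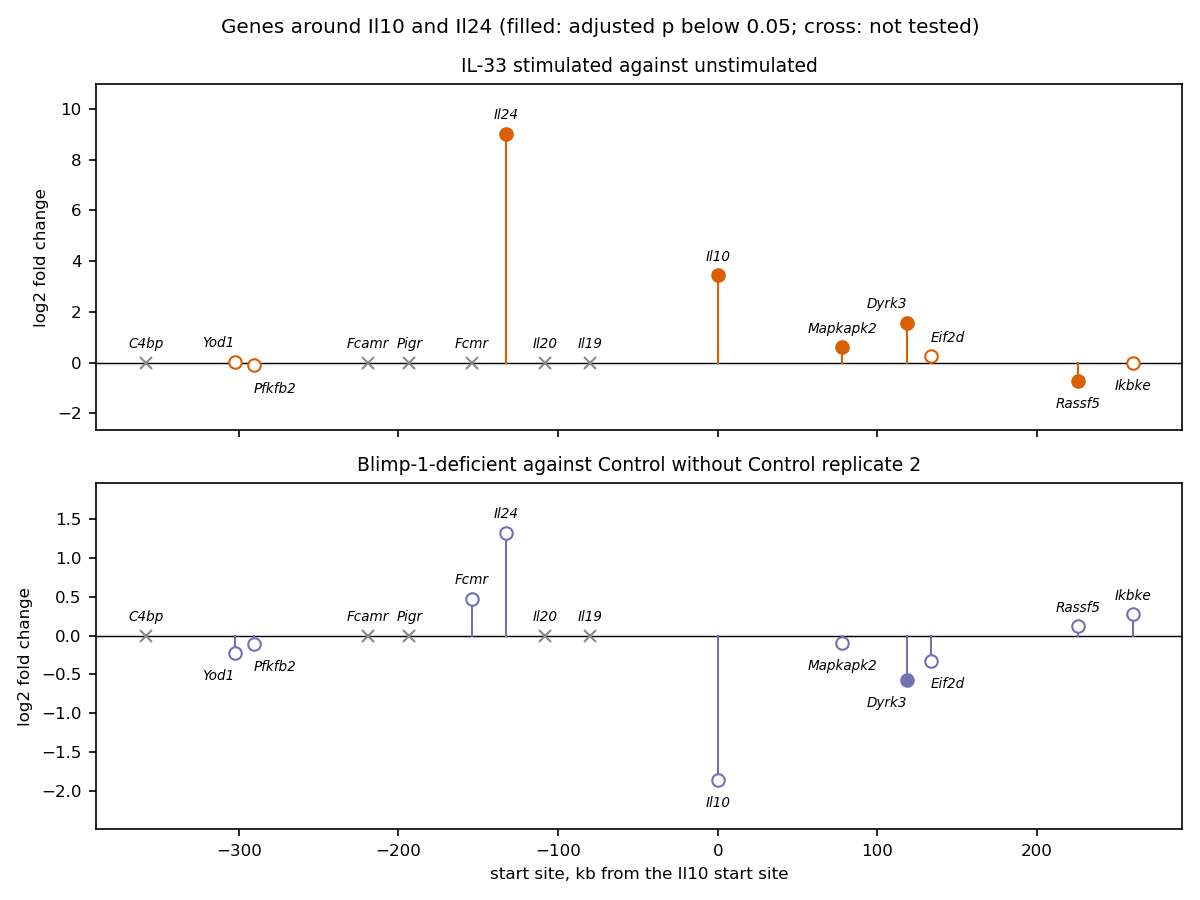
Log2 fold change of the genes around Il10 and Il24, placed by the distance of their start site from that of Il10 in kb, IL-33 stimulated against unstimulated (top) and Blimp-1-deficient against Control without Control replicate 2 (bottom). Filled symbols have an adjusted p below 0.05, crosses were not tested, and the longest stems are those of Il24 at 9.02 in the top panel and Il10 at -1.86 in the bottom panel.

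The profiles most like those of the cytokines over the 8 libraries were found from the root mean square difference of log2(CPM + 0.5), each profile centred on its own mean. For Il24 they were Csf2, the gene for GM-CSF (0.257), the casein gene Csn1s1 (0.306) and the chemokine Cxcl2 (0.449), where the median gene differed by 3.06. For Il10 they were Afp (0.288), Gsto1 (0.294) and St6galnac4 (0.295), where the median gene differed by 1.01. The likeness for Il24 rests on a large common step between the groups, and for Il10 the libraries at or near 0 counts bound it.

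Markers of other cells also moved between these groups. The summed T cell markers, 7 genes, ran from 167 to 187 CPM in the unstimulated and from 38.4 to 62.8 CPM in the stimulated libraries. The 5 mast cell and basophil markers summed to 7.12 to 14.7 CPM and to 0 to 0.296 CPM, with Ms4a2 at 0 in all 8 libraries. The 11 myeloid markers overlapped, at 93.6 to 207 and 41.9 to 141 CPM, and so did the 9 epithelial and stromal markers, at 298 to 460 and 186 to 365 CPM. Of the markers tested, 4 of 7 T cell, 0 of 9 myeloid and 1 of 5 epithelial and stromal ones were lower. Without IL-33 stimulated replicate 3 these were 5 of 7, 3 of 9 and 3 of 5, when 29.7% of all genes were lower. In both fits 1 epithelial and stromal marker was higher. The 16 ILC2 markers summed to 9875 to 11190 CPM without and 30030 to 48830 CPM with IL-33. However, 10 of them were lower and 4 higher, when 16.1% of all genes were lower and 16.2% higher. Their median log2 fold change was -0.42. The 4 B cell markers summed to at most 0.315 CPM and the 5 NK cell and ILC1 markers to at most 6.06 CPM. Both cytokines and Il10ra were higher where the T cell and mast cell markers were lower. The CD3- and lineage- gates of the sort should remove T cells. The part of these cells in the results was not tested, and in bulk samples fewer cells of a type cannot be told apart from less RNA per cell.

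In the Blimp-1 experiment none of the 6 genes passed the test, with all 6 libraries or without Control replicate 2. The values nevertheless separated for the cytokines, in opposite directions. Il10 was lower in every Blimp-1-deficient library than in every Control library, and Il24 and Il10ra were higher, so that the groups did not overlap for 3 of the 6 members, against 22.6% of the 17335 genes tested. The listed values of Il20ra did not overlap either, but its count of 0 in Control replicate 2 allows a level above those of all Blimp-1-deficient libraries. At an unadjusted p below 0.05, Il24 was past it, when 11.9% of the genes tested were. Il20ra was also past it, but it entered the test only through the Blimp-1-deficient libraries, in which it is high, and is given as a description. DESeq2 called 1 of the 6, Il24, and 6.41% of its 17248 genes. Few genes of any kind passed the adjusted threshold with all libraries, 0.756% (0.45% higher, 0.306% lower). Without Control replicate 2, 14% of 17968 genes passed (8.25% higher, 5.72% lower), 50.5% had groups that did not overlap, and the groups of Il10, Il24, Il10ra and Il20ra did not overlap. In that fit Il24 and Il10ra were past an unadjusted p of 0.05, when 31.2% of the genes tested were. Il20ra was also past it, with the limit just given. DESeq2 then called 1 of the 6, Il10ra (adjusted p = 0.0491), and 19.5% of its 18296 genes. An exact permutation test of 3 against 3 libraries cannot give a p below 0.1, which was reached by Il10, Il24, Il10ra and, with the limit on its count of 0, Il20ra.

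Il10 had 11.5, 16.8 and 7.64 CPM in the Control libraries 1 to 3 (955, 69 and 723 raw counts). In the Blimp-1-deficient libraries it had 2.17, 5.46 and 0.321 CPM (180, 423 and 31 raw counts). The groups did not overlap, but the Blimp-1-deficient libraries were spread widely among themselves, with replicate 3 lowest. The mean was 12.0 ± 4.60 CPM in Control and 2.65 ± 2.60 CPM in Blimp-1-deficient ILC2s (SD, n = 3). The difference on the log2 scale was -2.15 (standard error 0.90, 95% interval -4.32 to 0.02, adjusted p = 0.422). Without Control replicate 2, the highest of the Controls, it was -1.86 (95% interval -3.78 to 0.06, adjusted p = 0.172). Of 13 alternatives to that fit, 2 passed, the replicate number as a block (-3.29) and no filter on low counts. The replicate numbers do not pair the mice, and in that block fit Blimp-1-deficient replicate 2 had no Control of its number.

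Il24 had 32.1, 13.4 and 17.7 CPM in the Control libraries 1 to 3 (2658, 55 and 1680 raw counts) and 43.5, 102 and 41.0 CPM in the Blimp-1-deficient libraries (3604, 7925 and 3964 raw counts). All Blimp-1-deficient libraries were above all Controls, with replicate 2 far above the other 2. On the log2 scale the groups differed by 1.52 (standard error 0.47, 95% interval 0.40 to 2.64, unadjusted p = 0.0156, adjusted p = 0.258). Without Control replicate 2, the lowest of the Controls, it was 1.33 (standard error 0.44, unadjusted p = 0.0195, adjusted p = 0.0910). With all 6 libraries, DESeq2 called Il24 higher (log2 fold change 1.56, adjusted p = 0.0187), and without Control replicate 2 it did not (adjusted p = 0.171). Of 13 alternatives to the fit without Control replicate 2, 2 passed, the replicate number as a block and no filter on low counts. The limit given for Il10 on that block fit holds here too.

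Both cytokines stood in another proportion in each group. The ratio of Il24 to Il10 in TPM was 2.63, 0.753 and 2.20 in Control replicates 1 to 3, and 18.9, 17.7 and 120.9 in Blimp-1-deficient replicates 1 to 3. A ratio within a library does not depend on the scaling of that library, and all Blimp-1-deficient ratios were above all Control ratios. The highest, in replicate 3, came with the lowest Il10 of the group and an Il24 level close to that of replicate 1.

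Il22, the other ligand with enough counts, had 226, 3 and 358 counts in Control and 1673, 601 and 592 in Blimp-1-deficient libraries, a log2 difference of 2.08 (adjusted p = 0.241), or 1.82 without Control replicate 2 (adjusted p = 0.0605). Its groups did not overlap in CPM, but it did not pass. Il19 had 8, 0 and 3 counts in Control and 2, 3 and 9 in Blimp-1-deficient libraries, and Il20 had at most 3 counts in any library. Iltifb had 2 counts in Blimp-1-deficient replicate 1 and none elsewhere, and Ifnl2 and Ifnl3 had none.

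Il10ra, the IL-10 binding chain, had 161, 104 and 147 CPM in the Control libraries 1 to 3 and 176, 172 and 189 CPM in the Blimp-1-deficient libraries. The groups did not overlap, but the step was small beside that seen after IL-33. The log2 fold change was 0.38 (95% interval -0.03 to 0.78, adjusted p = 0.458), and 0.23 without Control replicate 2 (95% interval 0.06 to 0.39, adjusted p = 0.0760). Il10ra passed in 5 of 13 alternatives to the latter fit. Il10rb, the shared chain, had 28.3, 19.7 and 26.7 CPM in Control and 27.6, 28.0 and 30.4 CPM in Blimp-1-deficient libraries, with a log2 fold change of 0.19 (95% interval -0.17 to 0.54, adjusted p = 0.700). These groups overlapped, and without Control replicate 2 the interval of the difference was -0.09 to 0.24. The ratio of Il10ra to Il10rb in TPM was 5.74 to 6.19 in Control and 6.69 to 6.95 in Blimp-1-deficient libraries.

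Il20ra, the partner chain of the IL-24 receptor, had 5, 0 and 7 raw counts in the Control libraries and 10, 25 and 16 in the Blimp-1-deficient libraries. These few counts gave 0.0603, 0 and 0.0739 CPM, and 0.121, 0.322 and 0.166 CPM, with the count of 0 in the library of least usable depth, where 3 counts are 0.731 CPM. The log2 fold change was 1.66 (95% interval 0.04 to 3.28, unadjusted p = 0.0460, adjusted p = 0.406), and the gene entered the test only through the Blimp-1-deficient libraries. Without Control replicate 2 it was 1.57 (adjusted p = 0.128). Il20rb, the shared chain, had 1.63, 2.19 and 2.02 CPM in Control and 1.66, 1.60 and 1.77 CPM in Blimp-1-deficient libraries, which overlapped (log2 fold change -0.20, 95% interval -0.76 to 0.37, adjusted p = 0.813). The sign of the Il20rb difference differed between alternatives.

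**Figure D5:**
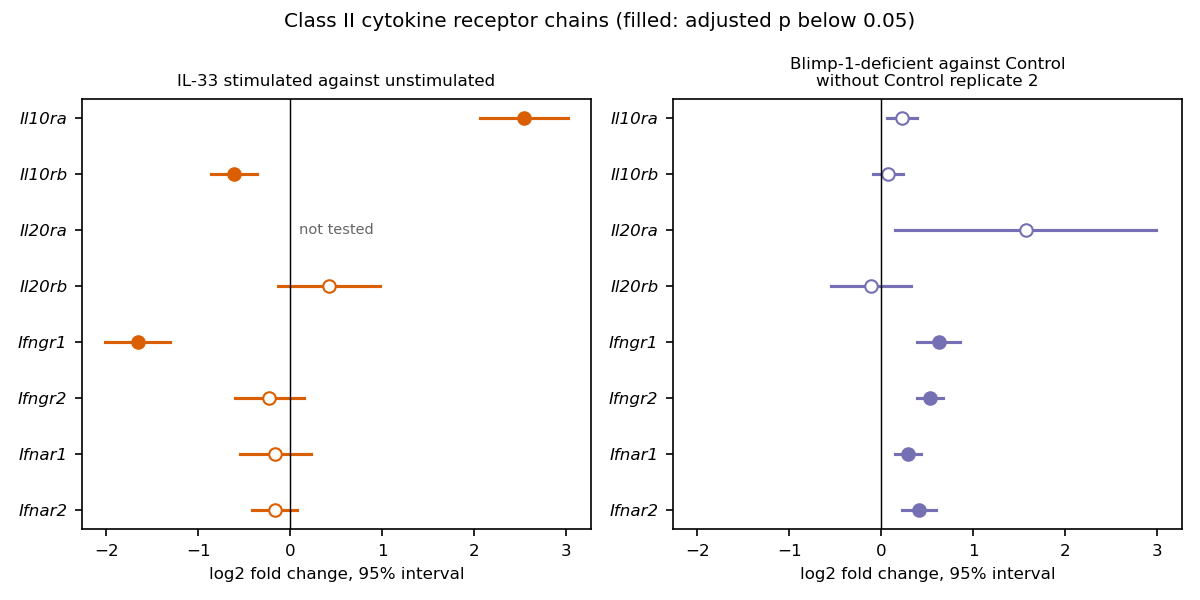
Log2 fold change with its 95% interval for the 8 class II receptor chains tested in at least 1 comparison, IL-33 stimulated against unstimulated (left) and Blimp-1-deficient against Control without Control replicate 2 (right), with filled symbols for an adjusted p below 0.05. On the left Il10ra is higher and Ifngr1 and Il10rb lower, and on the right the 4 interferon receptor chains are higher while the members do not pass.

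Other chains of the receptor class did pass in Blimp-1-deficient ILC2s once Control replicate 2 was left out. Of 8 chains tested, 4 were higher and none lower, all of them interferon receptor chains and none a member, when 8.25% of all genes were higher and 5.72% lower. They were Ifngr1 (log2 fold change 0.62, adjusted p = 0.00950), Ifngr2 (0.53, adjusted p = 0.00328), Ifnar2 (0.41, adjusted p = 0.0178) and Ifnar1 (0.29, adjusted p = 0.0238). With all 6 libraries none of the 8 passed, and the values were 0.84, 0.57, 0.50 and 0.36. The median of the 8 chains was 0.35 without Control replicate 2, against 0.01 over all genes. Ifnlr1, which pairs with Il10rb in the type III interferon receptor, had 0 counts in every Control library and 7, 6 and 6 counts in the Blimp-1-deficient libraries, too few for the test.

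Downstream of the receptors, without Control replicate 2, the kinase and STAT genes Jak2 (0.53, adjusted p = 0.0147) and Stat5b (0.24, adjusted p = 0.0498) were higher, and neither passed with all 6 libraries (adjusted p = 0.271 and 0.303). The Stat5b call was also lost with RLE scaling (adjusted p = 0.0507) and in limma on log2(TPM + 1) (0.0755). Of the 10 genes induced by IL-10 and STAT3 or feeding back on them, 2 were higher and 5 lower, again against 8.25% and 5.72% of all genes, with a median of -0.31 against 0.01 over all genes. Zfp36, which destabilizes cytokine mRNAs, was lower (-1.11, adjusted p = 0.00159), as were Socs3 (-0.84, adjusted p = 0.00839), the STAT3-induced feedback inhibitor, and Bcl3 (-0.40, adjusted p = 0.0145). Etv3 (1.23, adjusted p = 0.000241) and Socs1 (0.58, adjusted p = 0.0323) were higher. With all 6 libraries only Etv3 passed (1.29, adjusted p = 0.0122).

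Of the 12 regulators linked to Il10 in T cells, 4 were higher and 2 lower without Control replicate 2, when 14% of all genes passed. Apart from the deleted Prdm1 (-2.57, adjusted p = 0.000134), these included Id3 (0.61, adjusted p = 0.00996), Bhlhe40 (0.52, adjusted p = 0.0113), Crem (0.40, adjusted p = 0.0372) and Rora (0.36, adjusted p = 0.0148). With all 6 libraries only Prdm1 passed. Of the neighbours of Il10 and Il24, 8 were tested without Control replicate 2 and only Dyrk3 passed, when 14% of all genes did. It was 0.58 lower on the log2 scale (log2 fold change -0.58, adjusted p = 0.0384). No neighbour passed with all 6 libraries. The Dyrk3 call was lost with library size alone (adjusted p = 0.0507) and in limma on log2(TPM + 1) (0.0646).

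Over the 6 libraries, the profiles nearest to that of Il24 were Mmp3 (root mean square difference 0.233), BC035044 (0.316) and Cd86 (0.360), where the median gene differed by 0.933. Those nearest to Il10 were Ldoc1 (0.674), Csf2rb (0.720) and Camk2b (0.744), less close, where the median gene differed by 1.5. Control replicate 2 is among the libraries compared.

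Markers of myeloid cells, which the lineage- gate of the sort should remove, summed to 31.4 to 125 CPM in Control and 35.6 to 113 CPM in Blimp-1-deficient libraries. The epithelial and stromal markers ran from 140 to 2220 CPM in Control, highest in replicate 2, whose Col1a1 alone had 2171 CPM. Without that library the Controls were at 140 and 214 CPM, below the 341 to 465 CPM of the Blimp-1-deficient libraries. The T cell markers were at 38.7 to 46.2 and 46.9 to 53.3 CPM, the NK cell and ILC1 markers at 5.77 to 6.82 and 2.94 to 10.3 CPM, the mast cell and basophil markers at 0.326 to 1.26 and 0.248 to 0.658 CPM, and the B cell markers at no more than 0.290 CPM. The 16 ILC2 markers summed to 13600 to 22880 and 14810 to 19410 CPM. Without Control replicate 2, 4 of them were higher and 6 lower (median log2 fold change -0.30), when 8.25% of all genes were higher and 5.72% lower. In that fit 2 myeloid and 2 epithelial and stromal markers were higher and 1 NK cell and ILC1 marker lower, and the other lists held no call. The part of the other cell types in the values was not tested.

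Per length, the order of the members differed between the groups. In unstimulated ILC2s it was Il10ra (73.4 ± 7.32 TPM), Il10rb (32.1 ± 2.38) and Il20rb (1.40 ± 0.352), followed by Il10 (0.362 ± 0.582), Il20ra (0.245 ± 0.0991) and Il24 (0.164 ± 0.233), the last 3 within their spread of each other and Il10 overlapping Il20rb (SD, n = 4). In IL-33 stimulated ILC2s it was Il10ra (341 ± 96.4 TPM), Il24 (74.4 ± 20.1), Il10rb (16.8 ± 1.82), Il10 (3.28 ± 1.77), Il20rb (1.495 ± 0.152) and Il20ra (0.0876 ± 0.0808), with the ranges of Il10 and Il20rb overlapping. Controls 1 and 3 had 172 and 165 TPM of Il10ra, 86.7 and 50.04 of Il24, 27.9 and 27.4 of Il10rb, 33.0 and 22.8 of Il10, 1.45 and 1.87 of Il20rb and 0.0931 and 0.119 of Il20ra, with Il10 and Il10rb overlapping. In Blimp-1-deficient ILC2s, Il10ra (206 ± 12.9 TPM) and Il24 (179 ± 93.8) overlapped at the top, and Il10rb (30.3 ± 1.47) stood above Il10 (8.08 ± 7.66), Il20rb (1.60 ± 0.109) and Il20ra (0.332 ± 0.162), the ranges of Il10 and Il20rb overlapping (SD, n = 3). Il20ra, one of the chains through which IL-24 acts, was thus at the bottom of the order or next to it in each group, and Il10ra had the highest mean in each. The experiments differ in time, cytokines and mice, so no test was made between them.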

How the data were processed

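RNA of sorted lung ILC2s (live, lineage-, CD90.2+, CD3-), 1 library per mouse by the sample titles, was amplified with SMART-seq v4 and sequenced as 75-base read pairs. The study's legends for the figures with these data describe points as sorts from pooled animals. Whether this covers the RNA libraries is not stated. Per the study's methods, the authors trimmed with cutadapt, aligned to GRCm38 with HISAT2 and counted with Subread, while the submitters' processing notes name Bowtie2 and mm10. They deposited raw counts (whole numbers, not normalized) and TPM per gene. Counting strand is not given in the sources used here.

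The counts were fitted separately for each experiment with edgeR 4.0.16 in R 4.3.3 (TMM, filterByExpr, quasi-likelihood test, two-sided, Benjamini-Hochberg adjustment over all genes tested, threshold 0.05, no replicate term). Standard errors were derived from the F statistic. DESeq2 1.42.0, limma 3.58.1 on log2 TPM, other scalings, other filters, a block for the replicate number, and each library left out in turn, were the alternatives. Single-gene permutation tests were exact. The fits were tested on simulated data. Replicates are separate mice by the sample titles. Depth ran from 10470125 to 76448945 counts, and intervals of 0 counts cover counting error only.

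Members, 6 pathway lists and 7 marker lists were chosen with earlier results of these data known. Named genes are the 6 members, listed genes past the threshold (at most 5 per list) or near 0, and the 3 profiles most like Il10 and Il24 with a mean of at least 1 CPM. Positions are from GENCODE and promoters from RefSeq. Figures were drawn with matplotlib 3.10.9. Some listed genes are not reported here.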

Additional observations from a re-analysis of the deposited data

Results flagged for a closer look

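Of the groups of 4 libraries, 12 sets of member values were checked for a library far from the others, which chance alone marks in about 1 of 20 sets. Il10ra in unstimulated replicate 2 was at 63.5 CPM, below the other 3 libraries at 76.8 to 78.5 CPM. Il10ra in IL-33 stimulated replicate 3 was at 263 CPM, below the other 3 at 479 to 498 CPM. The second of these is the library of lowest depth in that experiment. The causes were not tested.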

How the results depend on the processing

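After IL-33, Il24, Il10ra and Il10rb kept their direction and their call under all 16 alternatives, with adjusted p of at most 0.0169. Il10 kept its direction under all 15 that could be fitted but lost its call under 9, with adjusted p of 0.00378 to 0.131 over them, among them library size alone (0.0518) and no filter on low counts (0.103). It was not tested at a mean count of at least 50. In Blimp-1-deficient ILC2s with all libraries, the count of members higher was 1 in place of 0 with DESeq2 (Il24). Without Control replicate 2, 1 was higher with library size alone, DESeq2, limma on log2(TPM + 1) and limma on log2(TPM + 0.1), each time Il10ra (adjusted p 0.0268, 0.0491, 0.0436 and 0.0440), and 2 higher and 1 lower with no filter on low counts (Il24, 3.99e-05; Il10ra, 0.0433; Il10, 0.00153). Leaving out a further library called no member. Without IL-33 stimulated replicate 3, all 4 calls after IL-33 were kept in every alternative that could be fitted. In Blimp-1-deficient against Control ILC2s with all libraries, Il20rb (-0.20) turned to 0.30 with library size alone, 0.41 with limma on log2(TPM + 1) and 1.12 with limma on log2(TPM + 0.1), and, without Control replicate 2, to 0.039 when Control replicate 3 was also left out. The cause of these changes was not tested. TPM and library size alone moved the median over all genes to -0.25 and -0.10 (log2) from 0.06 after IL-33, and limma on log2(TPM + 1) left 18.1% of calls higher in place of 50.2%. In the Blimp-1 experiment with all libraries these medians were 1.28 and 0.45. Over all genes of that experiment 78 were higher and 53 lower, against 556 and 550 with DESeq2, 149 and 107 at a mean count of at least 50, 1 and 1 with limma on log2(TPM + 1), 0 and 0 with the block, 1483 and 1027 without Control replicate 2 and at most 7 and 2 without any other library. Without Control replicate 2, library size alone made 70.2% of calls higher in place of 59.1%, and no filter gave 2331 higher and 1524 lower. After IL-33, 2508 were higher and 2484 lower, against 4328 and 4666 without IL-33 stimulated replicate 3 and 1672 and 1840 with no filter.

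The replicate numbers do not pair the samples, which came from separate mice by the series design. Same-numbered libraries did not deviate together throughout (correlations -0.113 to 0.344 in the stimulation and -0.170 to 0.137 in the Blimp-1 experiment). However, IL-33 stimulated replicates 2, 3 and 4 were each nearest to the unstimulated library of their own number, and replicate 1 was not. With the replicate number as a block, the log2 fold change of Il10 after IL-33 was 4.10 (adjusted p = 0.0805), and Il24 9.20, Il10ra 2.50 and Il10rb -0.61 passed. In the Blimp-1 experiment with the block no member passed with all libraries, and without Control replicate 2, 1 was higher (Il24, 0.83) and 1 lower (Il10, -3.29). In the latter fit Blimp-1-deficient replicate 2 had no Control of its number.

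With all libraries of the Blimp-1 experiment, Prdm1 and Etv3 kept their direction but not their call with library size alone (adjusted p 0.277 and 0.645) and in limma on log2(TPM + 1) (0.537 and 0.521).

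Depth limits Il20ra in all groups, Il10 and Il24 in unstimulated ILC2s, and Control replicate 2 for every low gene.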
